A study of Mus musculus with 2 samples.

Results

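The members described here are 8 Krueppel-like factor genes, Klf2, Klf3, Klf4, Klf6, Klf7, Klf10, Klf12 and Klf13. They were found by symbol among 31053 genes measured by droplet single-cell RNA sequencing of mouse bone marrow cells labelled as haematopoietic stem cells (HSCs), the source of every blood lineage. The Listeria library came from wild-type C57BL/6J mice taken 6 weeks after challenge with the bacterium Listeria monocytogenes, and the naive library from wild-type C57BL/6J mice given no treatment. Mice in both groups are given an age of 6 to 8 weeks, and whether that was at challenge or at sampling is not stated, so the groups may differ in age when sampled, which cannot be told apart from the challenge. The names under which the libraries were deposited mark the Listeria library as knockout and the naive library as wild type, although the labels call both wild type, so a genotype difference cannot be told apart either. There was 1 library per group, so no difference has a replicate check, and every ratio compares these libraries and not the conditions. How many mice went into a library is not given, and neither is a sorting gate.

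Krueppel-like factors are transcription factors whose zinc fingers at the carboxyl end bind GC-rich and CACCC-type DNA, while their other ends differ and recruit activators or repressors. Klf2 and Klf4 hold several cell types out of division, Klf4 is one of the pluripotency factors, and Klf2 keeps resting T cells quiescent and lies downstream of the MEK5-ERK5-MEF2 pathway. Klf6, Klf10 and Klf4 are early-response genes, transcribed within a short time of a stimulus, as are Fos, Egr1 and Atf3. The members were chosen by name with earlier results of these libraries known, so all levels and ratios below are descriptions.

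A cell was kept with at least 2500 unique molecular identifiers (UMIs, which count captured transcripts once each), at least 500 genes and at most 10% mitochondrial UMIs. This left 4839 cells of the Listeria library and 6375 of the naive library, with a median of 7239 and 6972 UMIs. The libraries held 43895966 and 64619150 UMIs in all, and they shared 14 cell barcodes, against 4.54 by chance pairing of barcodes. Cells were put into gated types by their UMIs of lineage markers, none of them a Krueppel-like factor. The HSC gate held 1510 Listeria and 1475 naive cells. All 15 of its markers, Procr, Mecom and Hlf among them, were detected there in both libraries. As the gate was set by these markers, their presence is no check of it, and all 15 were also detected in MPP-gated cells. Procr had a UMI in 37.2% of Listeria and 41.2% of naive HSC-gated cells, and Hlf in 84.2% and 85.7%. The label was met only in part, because 394 Listeria and 1369 naive cells fell in the B-lineage gate. The MPP gate held 1083 Listeria and 1162 naive cells, and 6 other types had at least 50 cells in both libraries. MPP stands for multipotent progenitor.

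Promoters are shown for 4 members because Klf4 and Klf13 had the lower levels in HSC-gated Listeria cells described below, whereas Klf2 and Klf6 went with Fos from cell to cell. Each window runs from 250 bases before to 50 after the RefSeq gene start on GRCm38.p6, in the direction of transcription, and capitals mark CCAAT boxes, the MEF2 site and the GC box GGGCGG, on either strand.
Klf2, chr8:72318812-72319111, plus strand: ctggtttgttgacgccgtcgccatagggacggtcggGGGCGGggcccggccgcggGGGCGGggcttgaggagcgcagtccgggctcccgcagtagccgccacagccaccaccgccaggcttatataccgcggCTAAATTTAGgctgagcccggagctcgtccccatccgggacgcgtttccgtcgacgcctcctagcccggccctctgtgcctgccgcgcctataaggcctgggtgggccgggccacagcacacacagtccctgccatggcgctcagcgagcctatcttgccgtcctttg
Klf4, chr4:55532426-55532725, minus strand: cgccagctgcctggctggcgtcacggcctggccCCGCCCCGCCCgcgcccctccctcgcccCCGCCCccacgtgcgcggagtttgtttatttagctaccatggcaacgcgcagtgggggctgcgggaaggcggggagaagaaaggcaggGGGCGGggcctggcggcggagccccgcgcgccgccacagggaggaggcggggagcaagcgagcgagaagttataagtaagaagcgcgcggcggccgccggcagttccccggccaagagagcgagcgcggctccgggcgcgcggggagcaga
Klf6, chr13:5861239-5861538, plus strand: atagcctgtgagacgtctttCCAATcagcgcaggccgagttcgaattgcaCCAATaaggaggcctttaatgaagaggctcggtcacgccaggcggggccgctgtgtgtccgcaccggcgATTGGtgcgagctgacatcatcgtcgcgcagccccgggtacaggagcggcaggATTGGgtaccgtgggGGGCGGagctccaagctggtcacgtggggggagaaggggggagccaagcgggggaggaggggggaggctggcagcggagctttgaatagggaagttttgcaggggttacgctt
Klf13, chr7:63938866-63939165, minus strand: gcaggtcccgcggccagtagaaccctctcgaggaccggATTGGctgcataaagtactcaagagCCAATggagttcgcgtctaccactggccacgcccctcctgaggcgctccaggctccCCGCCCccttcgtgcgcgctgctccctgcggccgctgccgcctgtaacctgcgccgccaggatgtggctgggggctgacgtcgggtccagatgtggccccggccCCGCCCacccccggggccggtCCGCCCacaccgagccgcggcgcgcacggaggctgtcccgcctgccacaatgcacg
RefSeq windows matched 7 of the 8 members, all but Klf10. A GC box is in 35.9% of the 27025 promoters searched, and the windows held 2 in Klf2, 4 in Klf4, 1 in Klf6 and 3 in Klf13. The first pair in Klf4 shares a base. A CCAAT box, in 37.9% of promoters, was found 4 times in Klf6 and 2 times in Klf13, and in neither of the others shown. The MEF2 site, in 3.26% of promoters, matched only Klf2 among the 7, 118 bases before the start. Of the 4 shown, Klf4 and Klf6 held the E box CACGTG, which is in 7.24% of promoters. Klf2 and Klf13 held the CACCC-type box, CCACCC, which is in 30.9% of promoters and lies in Klf13 across the end of a GC box. Klf2, Klf4 and Klf13 held the core TGACG, which is in 21.0%. None of the 7 windows held the full cyclic AMP response element TGACGTCA, which contains that core and is in 1.88% of promoters, the AP-1 site TGANTCA (7.93%) or the SRF CArG box (1.57%), and the TATA box, TATAAA (14.2%), matched only Klf12. These are letter matches within short windows.

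In HSC-gated cells Klf4, Klf10 and Klf13 were lower in the Listeria library, and Klf2 and Klf6 hardly differed. Klf4 was at 419 CPM (the gate's UMIs of the gene, scaled to 1e+06 UMIs in all; 95% counting interval 407 to 431) in Listeria HSC-gated cells, against 930 CPM (912 to 949) in naive ones. The intervals lie apart, and the log2 ratio of Listeria over naive was -1.15 (-1.20 to -1.10), a 2.22-fold lower level. Intervals here and below cover counting error only. Klf10, the TGF-beta-inducible early gene, was at 117 CPM (111 to 123) in the Listeria library and 214 CPM (206 to 223) in the naive one, a log2 ratio of -0.88 (-0.97 to -0.78). Klf13, which in T cells drives the chemokine gene Ccl5, was at 484 CPM (472 to 497) in Listeria and 688 CPM (672 to 704) in naive HSC-gated cells, a log2 ratio of -0.51 (-0.56 to -0.46). For both genes the intervals also lie apart.

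Klf2 was at 743 CPM (728 to 759) in Listeria HSC-gated cells, against 714 CPM (698 to 730) in naive ones, so that its log2 ratio was 0.06 (0.01 to 0.10). Klf6, which acts in early blood formation in the mouse embryo, was at 995 CPM (977 to 1014) and 986 CPM (967 to 1005) in the same 2 libraries, with overlapping intervals. Klf3, a repressor that works with CtBP, was at 24.5 CPM (21.7 to 27.5) in Listeria and 21.7 CPM (19.0 to 24.7) in naive cells. Klf7 was at 25.3 CPM (22.4 to 28.4) in Listeria and 25.9 CPM (22.9 to 29.2) in naive cells, again with overlapping intervals. Klf12, another CtBP-binding repressor, was at 5.46 CPM (4.19 to 7.0) in Listeria and 6.24 CPM (4.83 to 7.94) in naive cells, under the 10 CPM in either library that a gene needed to be counted.

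**Figure D1:**
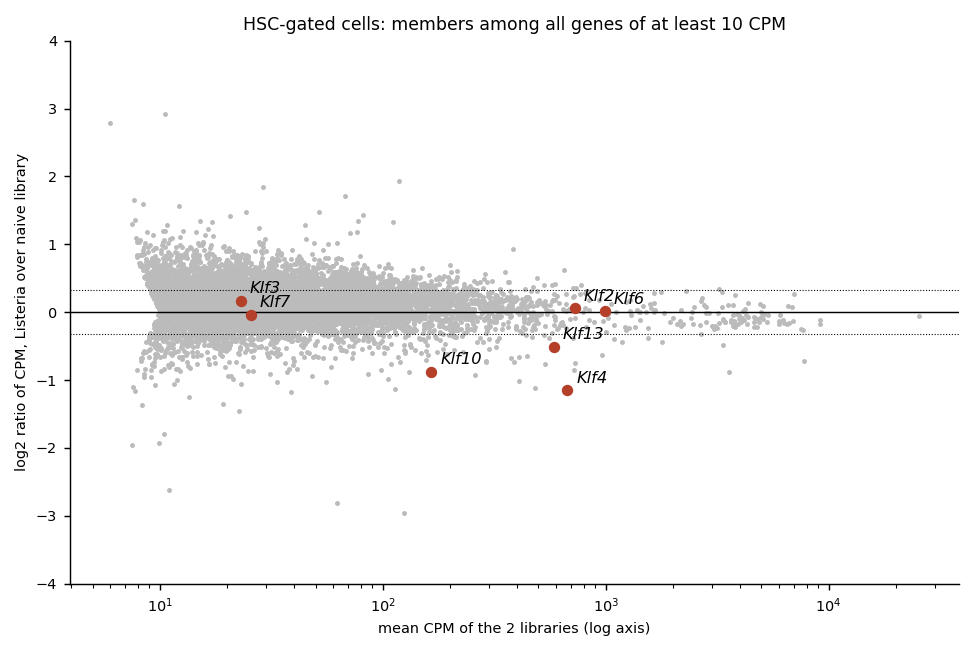
Log2 ratio of CPM in HSC-gated cells, Listeria over naive library, against the mean CPM of both libraries (log axis), for the 8115 genes that reached 10 CPM in at least 1 library, with the 7 members among them in red and the limits of 0.32 and -0.32 dotted. Klf4 at -1.15 and Klf10 at -0.88 sit well under the bulk of genes, Klf13 at -0.51 under the lower limit, and the other 4 near 0.

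Of the 7 members counted in HSC-gated cells, 3 were lower in the Listeria library by more than the limit, a log2 ratio past -0.32, and 0 were higher, past 0.32, whereas 6.97% of all 8115 genes were lower and 22.4% higher. The median log2 ratio was -0.04 over the members and 0.11 over all genes. Only 0.160% of genes had a ratio at or below that of Klf4, 0.468% at or below that of Klf10 and 2.76% at or below that of Klf13. The limit is a rule of size and no test, and at a limit of 1.5-fold Klf13 was no longer counted. Free RNA, taken from barcodes of 1 to 50 UMIs, also had less Klf4 in the Listeria library, at 219 CPM against 403 CPM in the naive one. Its share in HSC-gated cells, estimated from haemoglobin genes, was 1.45% in the Listeria and 1.29% in the naive library. Subtracting it left the HSC ratio at -1.15, and shares this small could move the ratio only slightly.

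The share of HSC-gated cells with a UMI was compared after every cell was thinned to 2500 UMIs. Klf4 had a UMI in 47.1% (44.5 to 49.6) of thinned Listeria cells and 69.9% (67.5 to 72.2) of thinned naive cells, and in 67.9% and 87.5% before thinning. In myeloid progenitor cells, where its level was lowest among the compared types of both libraries, 18.0% of Listeria cells at a median of 13646 UMIs and 18.2% of naive cells at 16023 had a UMI of Klf4, against HSC medians of 6983 and 6723 UMIs, and after thinning 6.56% and 12.7% had one. Klf2 had a UMI in 42.4% (39.9 to 44.9) of thinned Listeria cells and 54.9% (52.3 to 57.5) of thinned naive cells, 52.5% and 76.0% before thinning. Fewer Listeria than naive HSC-gated cells thus had Klf2, although its summed level was no lower. Erythroid-gated cells, which had the lowest Klf2 level of all gates, had a UMI of it in 39.5% of Listeria and 48.4% of naive cells, at medians of 12957.5 and 16074 UMIs, and in 21.1% and 19.4% after thinning. The thinned share was also lower with intervals apart for Klf10 (23.6% in Listeria, 39.8% in naive cells) and Klf13 (63.4% in Listeria, 76.7% in naive cells), so for 4 of the 8 members in all. How many of all genes meet this rule was not computed, so the count has no background beside it. Before thinning the shares of cells were 51.7% and 70.8% for Klf10, and 90.5% and 93.5% for Klf13. For Klf6 they were 76.4% in Listeria and 80.3% in naive cells after thinning and 91.7% and 94.2% before, and the thinned intervals overlap. In thinned erythroid-gated cells 13.2% of Listeria and 12.9% of naive cells had Klf10, 26.3% and 41.9% had Klf13, and 47.4% and 58.1% had Klf6. Erythroid-gated cells were not the lowest gate for Klf10 and Klf13, whose summed levels were lower in plasma cells of both libraries. Klf6 was lower in plasma than in erythroid-gated cells in the Listeria library only.

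Klf2 was spread more unevenly over Listeria than over naive HSC-gated cells. Listeria HSC-gated cells had 0 thinned Klf2 UMIs in 57.6% of cells and 7 or more in 11.4%, whereas naive cells had 0 in 45.1% and 7 or more in 7.25%. The Listeria library thus had more cells at both ends. The variance of thinned Klf2 UMIs was 5.84 times their mean in the Listeria library and 4.42 times in the naive library. For Klf4 the upper end was thinner instead, with 7 or more UMIs in 2.19% of Listeria and 8.75% of naive cells.

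**Figure D2:**
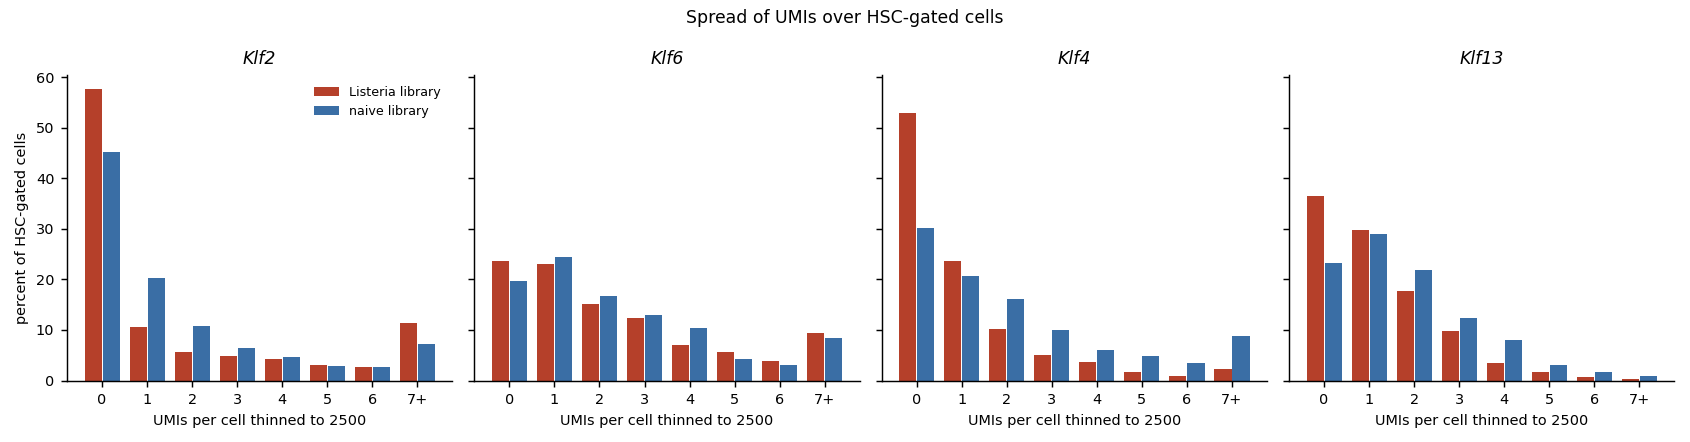
Percent of HSC-gated cells by the number of UMIs of Klf2, Klf6, Klf4 and Klf13 in cells thinned to 2500 UMIs, Listeria library in red left of the naive library in blue. Klf2 has more Listeria cells at 0 (57.6% against 45.1%) and at 7 or more (11.4% against 7.25%), and Klf4 has more Listeria cells only at 0 and 1.

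HSC-gated cells were next split by Fos, which encodes an AP-1 subunit, and Atf3, a stress-response factor. After thinning to 2500 UMIs, cells with at least 2 Fos UMIs were called Fos high (482 Listeria, 396 naive), the others with a thinned Atf3 UMI formed another class (448 Listeria, 608 naive), and the rest were low in both (580 Listeria, 471 naive). Levels in these classes are from all UMIs. In Fos-high cells Klf2 was at 1810 CPM in the Listeria library and 1507 CPM in the naive one, a log2 ratio of 0.26 (0.21 to 0.32). In cells with Atf3 and low Fos it was at 212 CPM in Listeria against 389 CPM in naive cells, a log2 ratio of -0.88 (-1.01 to -0.75). In cells low in both it was at 283 CPM in Listeria against 481 CPM in naive cells, a log2 ratio of -0.76 (-0.87 to -0.66). Klf2 was thus higher in the Listeria library in the Fos-high class and lower in the other classes, which together hold most cells of both libraries. The ratio in Fos-high cells is under the limit of 0.32, and Fos itself differed between the libraries in every class. It was at 2667 CPM in Listeria and 2311 CPM in naive Fos-high cells (log2 ratio 0.21), at 88.3 and 156 CPM in cells with Atf3 and low Fos (-0.82), and at 114 and 190 CPM in cells low in both (-0.74). Its ratios have the signs of the Klf2 ratios, and its part in them was not tested. Subtracting free RNA at the small shares given above, which could move them only slightly, left the Klf2 ratios at 0.27, -0.89 and -0.77.

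MPP-gated cells gave Klf2 ratios of the same signs, 0.46 (0.37 to 0.55) in Fos-high cells, -0.99 (-1.21 to -0.78) in cells with Atf3 and low Fos and -0.87 (-1.01 to -0.73) in cells low in both. Klf4 had no such change of sign. In HSC-gated cells its log2 ratio was -0.87 in Fos-high cells, -1.12 in cells with Atf3 and low Fos and -1.46 in cells low in both. Klf10 followed with -0.64, -1.02 and -0.92, and Klf13 with -0.56, -0.42 and -0.41, in the same order of classes. Klf6 was at 0.23, -0.09 and -0.24, all within the limit.

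**Figure D3:**
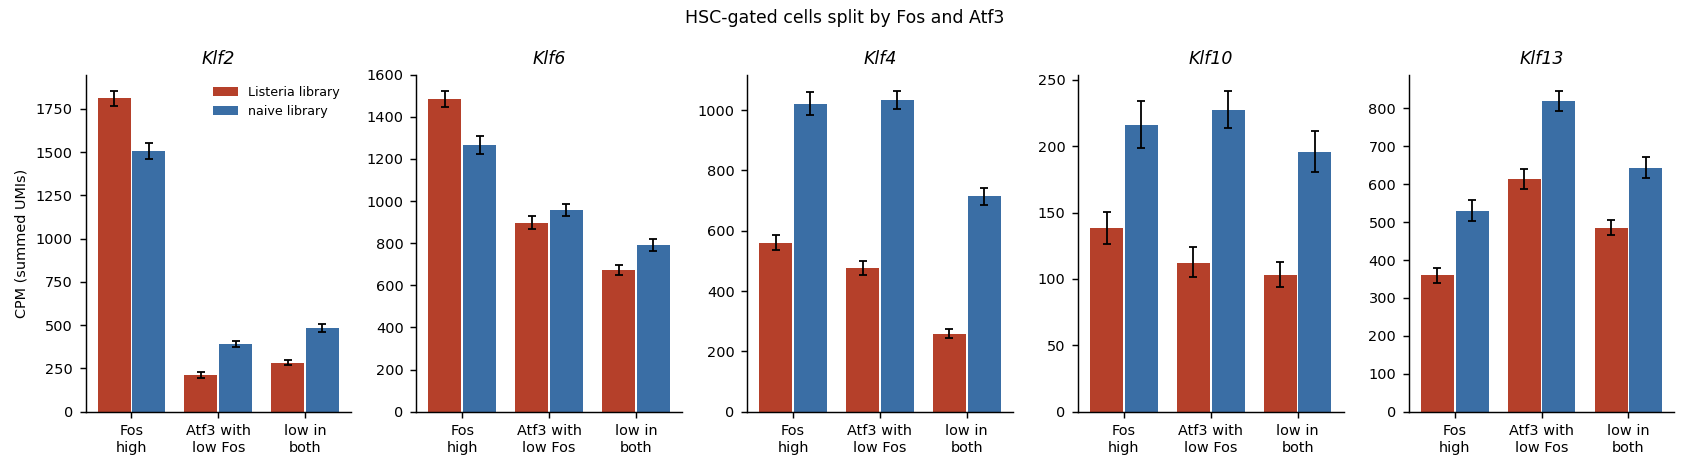
CPM of 5 members in HSC-gated cells split into Fos-high cells, cells with Atf3 and low Fos, and cells low in both, Listeria library (red) left of naive library (blue), bars from 0 with 95% counting intervals. Klf2 is at 1810 against 1507 CPM in Fos-high cells and at 283 against 481 CPM in cells low in both, whereas Klf4, Klf10 and Klf13 are lower in the Listeria library in each class.

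Within each library Klf2 and Klf6 went up with Fos and Klf13 went down. Listeria HSC-gated cells with 0 thinned Fos UMIs had a mean of 0.333 thinned Klf2 UMIs, those with 1 had 2.30, those with 2 to 3 had 4.17 and those with 4 or more had 5.12. In naive cells the means over the same Fos classes were 0.933, 1.65, 2.63 and 4.63. At 0 Fos UMIs 15.4% of Listeria and 42.5% of naive cells had a thinned Klf2 UMI. Klf6 had means of 1.87 at 0 and 4.02 at 4 or more Fos UMIs in Listeria cells, and 2.17 and 3.29 in naive cells. Klf13 had means of 1.41 and 0.784 at these ends in Listeria cells, and 1.93 and 1.17 in naive cells. Klf4 had 0.797 and 1.38 in Listeria cells and 2.25 and 2.56 in naive cells, and the Listeria mean was the lower one in every Fos class.

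Pairs among Klf2, Klf4, Klf6, Klf10 and Klf13 had thinned UMIs in the same HSC-gated cell slightly more often than independence gives in both libraries, except Klf2 with Klf13. That pair was found 0.919 times as often in Listeria and 0.963 times as often in naive cells. Klf2 with Klf10 had the highest ratio of these pairs, 1.30 times in Listeria and 1.08 times in naive cells, and Klf2 with Klf4 was at 1.22 and 1.05 times. No thinned UMI of any member was seen in 4.70% of Listeria and 0.949% of naive HSC-gated cells. These sparse counts are a description of the libraries.

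In MPP-gated cells Klf4 had the lowest ratio again, at 220 CPM (210 to 230) in the Listeria library against 523 CPM (507 to 540) in the naive one, a log2 ratio of -1.25 (-1.33 to -1.17). Klf10 was at 89.7 CPM in Listeria and 167 CPM in naive cells, and Klf13 at 353 CPM in Listeria and 479 CPM in naive cells. Klf7 was at 26.6 CPM (23.1 to 30.4) in Listeria and 35.2 CPM (31.0 to 39.8) in naive cells, a log2 ratio of -0.41. Of the 7 members counted, 4 were lower and 0 higher, beside 12.5% and 19.8% of all genes. Klf2 was at 451 CPM in Listeria and 469 CPM in naive cells, a log2 ratio of -0.05, but this rests on the gate: with 1 marker fewer required throughout the ratio was -0.88 and the 7 members other than Klf12 were lower, and with 1 marker more it was 0.36. Shares of all genes were not computed for these changed gates, so that count of members has no background beside it.

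Lymphoid-primed cells, marked by Dntt, Flt3 and Il7r, showed a Klf2 ratio that was absent from HSC-gated cells. Klf2 was at 1203 CPM (1152 to 1255) in the 210 Listeria cells, against 689 CPM (661 to 717) in the 452 naive cells, a log2 ratio of 0.80 (0.72 to 0.89). Klf6 was at 1198 CPM in Listeria and 956 CPM in naive cells, a ratio of 0.32 that lies barely past the limit. Klf4 (-0.67), Klf10 (-0.55), Klf7 (-0.65) and Klf13 (-0.80) were lower. These counts of 2 higher and 4 lower of 7 members stand beside 28% and 11.9% of all genes. Of 12 early-response genes 5 were higher and 2 lower in this gate, beside the same shares of all genes. Fos was at 1467 CPM in Listeria and 666 CPM in naive cells and Egr1 at 819 and 442 CPM, whereas Jund was at 2063 CPM in Listeria and 3182 CPM in naive cells and Atf3 at 488 and 874 CPM. The summed level of the 9 B-lineage markers was 59.2 CPM in Listeria and 153 CPM in naive cells, with 2 markers at 0 in the Listeria and 0 in the naive cells, and that of the 15 HSC markers was 753 and 540 CPM. The part of these genes in the Klf2 ratio was not tested.

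Megakaryocyte-gated cells, with 304 Listeria and 288 naive cells, had Klf4 at 267 CPM (250 to 284) in the Listeria library against 499 CPM (475 to 524) in the naive one, a log2 ratio of -0.90 (-1.02 to -0.79). Klf10 had a ratio of -0.54, and Klf13 at -0.31, Klf2 at -0.20 and Klf6 at -0.19 stayed within the limit. Here 2 of 7 members were lower and 0 higher, beside 10.6% and 15.8% of all genes. In B-lineage cells Klf4 was at 190 CPM (177 to 204) in Listeria and 262 CPM (254 to 271) in naive cells, and Klf2 was at 711 CPM in both. Klf4 (-0.46), Klf10 (-0.61) and Klf13 (-0.53) were the 3 of 7 members that were lower, with 0 higher, beside 6.66% and 7.8% of all genes.

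The smaller gates went different ways for Klf2. In T and NK cells it was at 877 CPM (802 to 956) in the Listeria library and 591 CPM (549 to 634) in the naive one, in neutrophils at 860 CPM (783 to 942) in Listeria and 1430 CPM (1347 to 1518) in naive cells, and in myeloid progenitors at 254 CPM (222 to 290) in Listeria and 434 CPM (392 to 480) in naive cells. Counting intervals are apart in all 3 types, and the ratio is above 0 only in T and NK cells. Fos was at 842 CPM in Listeria and 571 CPM in naive T and NK cells, at 319 and 452 CPM in neutrophils and at 191 and 204 CPM in myeloid progenitors. In some other gates Fos and Klf2 went opposite ways. Fos was at 244 and 302 CPM in erythroid cells (Klf2 ratio 0.83), 684 and 638 CPM in megakaryocyte-gated cells (-0.20) and 1781 and 1667 CPM in plasma cells (-0.33). The part of Fos in these ratios was not tested. In myeloid progenitors the 8 neutrophil markers summed to 76095 CPM in Listeria and 121647 CPM in naive cells, with 1 at 0 in each, and their part in the Klf2 ratio was not tested. Of the 8 members counted in T and NK cells, 2 were higher and 4 lower, beside 26.1% and 23.6% of all genes. The higher pair was Klf2 and Klf12, and Klf12 rested on 6 Listeria and 3 naive UMIs with a log2 ratio of 2.14 (-0.09 to 4.77). The T and NK gate is named after its marker list and may not hold T and NK cells alone. Nkg7 had a UMI in 85.9% of Listeria and 82.1% of naive cells there, but Cd3e only in 24.2% and 21.3%. The 5 MPP markers summed to 1559 CPM in Listeria and 1586 CPM in naive cells, beside 1294 and 1527 CPM in MPP-gated cells.

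Neutrophils had the highest Klf7 of the compared types in both libraries, at 254 CPM (214 to 301) in the 83 Listeria cells and 139 CPM (114 to 168) in the 101 naive cells, a log2 ratio of 0.87 (0.50 to 1.3). Klf4 was at 48.3 CPM (31.5 to 70.7) in Listeria neutrophils and 155 CPM (128 to 185) in naive ones, resting on 26 and 118 UMIs. Of 7 members 2 were higher and 3 lower, beside 30.2% and 33.1% of all genes, so these shares are near those of the whole table. The 8 neutrophil markers summed to 307660 CPM in Listeria and 281501 CPM in naive neutrophils, and the 15 HSC markers to 156 and 317 CPM, with 2 at 0 in Listeria and 1 at 0 in naive cells. The 9 dendritic markers summed to 89.1 CPM in Listeria and 532 CPM in naive neutrophils, with 4 at 0 in Listeria and 3 at 0 in naive cells. The part of these lists in the ratios of Klf2, Klf4 and Klf7 was not tested. Myeloid progenitors had Klf4 at 43.7 CPM in the Listeria and 44.7 CPM in the naive library, with overlapping intervals, and there 1 member was higher and 1 lower of 7, beside 31.5% and 18.2% of all genes. In gates with under 50 cells in a library, the Klf4 ratio was -0.20 (-1.12 to 0.70) in erythroid and -0.22 (-0.54 to 0.09) in plasma cells. It was -1.07 (-1.45 to -0.70) in dendritic cells.

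**Figure D4:**
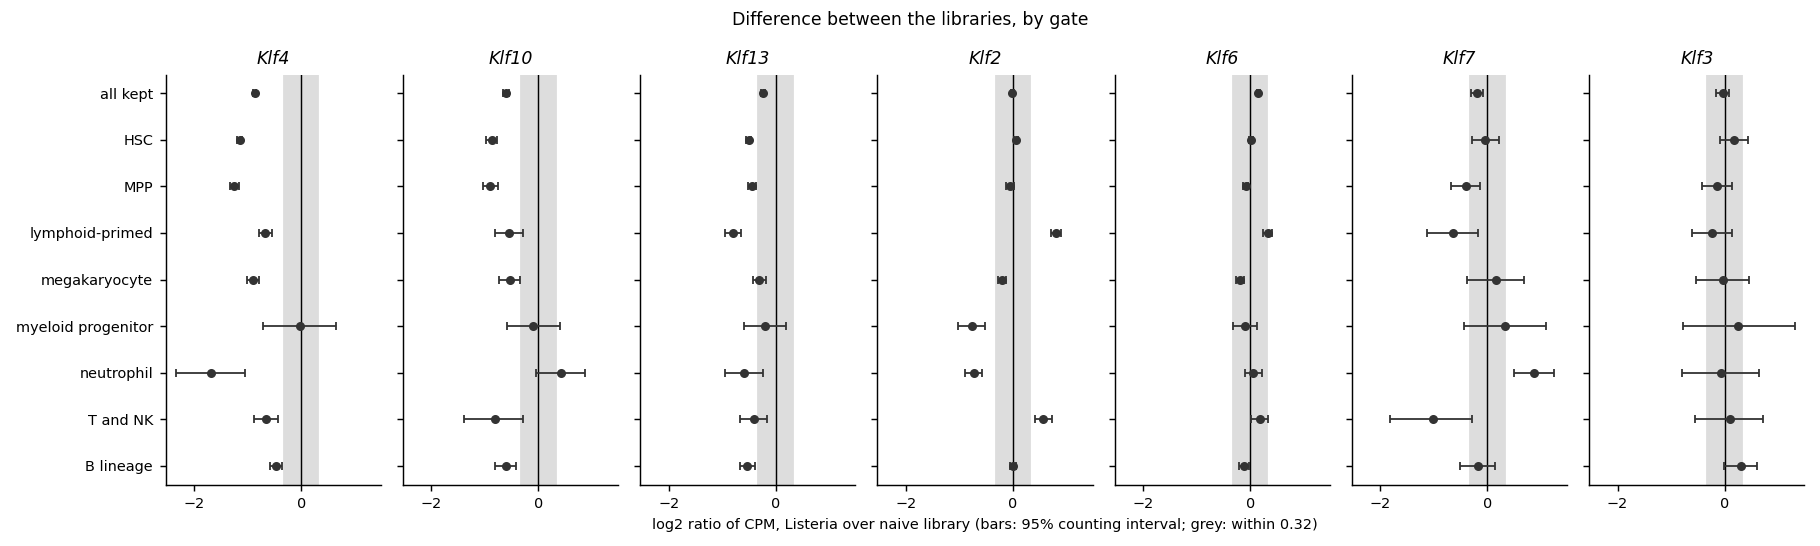
Log2 ratio of CPM, Listeria over naive library, of 7 members in all kept cells and in 8 gated types, with 95% counting intervals and the range from -0.32 to 0.32 in grey. Klf4 lies left of the grey range in each gate drawn but myeloid progenitors. Klf2 is right of it in lymphoid-primed and T and NK cells and left of it in myeloid progenitors and neutrophils.

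Over all kept cells, where the mix of types differs between the libraries, Klf4 was at 303 CPM in the Listeria library against 555 CPM in the naive one (log2 ratio -0.87) and Klf10 at 99.4 CPM against 151 CPM (-0.61). These were the 2 lower members of 7, with 0 higher, beside 8.62% and 15.1% of all genes. Klf13 had -0.23, Klf2 -0.01, Klf6 0.16, Klf7 -0.19 and Klf3 -0.04.

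Across the 8 compared types Klf4 was highest in HSC-gated cells of both libraries and lowest in myeloid progenitors, 9.57 times apart in the Listeria library and 20.8 times in the naive one. In the Listeria library the order of Klf4 ran HSC, lymphoid-primed, T and NK, megakaryocyte, MPP, B lineage, neutrophil and myeloid progenitor, and HSC did not lie apart from lymphoid-primed cells, lymphoid-primed from T and NK cells, or neutrophils from myeloid progenitors. In the naive library HSC-gated cells were above lymphoid-primed cells beyond the intervals, and MPP cells did not lie apart from T and NK or megakaryocyte cells. Klf13 was also highest in HSC-gated cells of both libraries, and Klf7 in neutrophils, so 3 of 8 members had the same highest type in both. The share of all genes with the same highest type was not computed. For Klf3, Klf6 and Klf12 the interval of the highest type overlapped that of the next in both libraries. For Klf10 it did so in the Listeria library, so a change of highest type in these members may be a tie. Klf2 was highest in lymphoid-primed cells of the Listeria library and in neutrophils of the naive one, and lowest in myeloid progenitors of both. Klf6 had those same highest types and was lowest in B-lineage cells of both libraries, at 321 CPM in Listeria and 348 CPM in naive cells. Klf10 ranged over only 2.34 times in the Listeria library, where all 7 pairs of neighbouring types overlapped, and 2.49 times in the naive one, where HSC-gated cells at 214 CPM lay above the rest. Klf3 was at 56.7 CPM in T and NK cells of the Listeria library and 58.9 CPM in lymphoid-primed cells of the naive one, its highest types. Neither lay apart from neutrophils, which were highest in Klf3 in the naive library by the mean over cells. Klf12 had 0 UMIs in Listeria B-lineage cells, where 3 UMIs would be 0.745 CPM, and 16 UMIs or 1.19 CPM in naive ones.

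**Figure D5:**
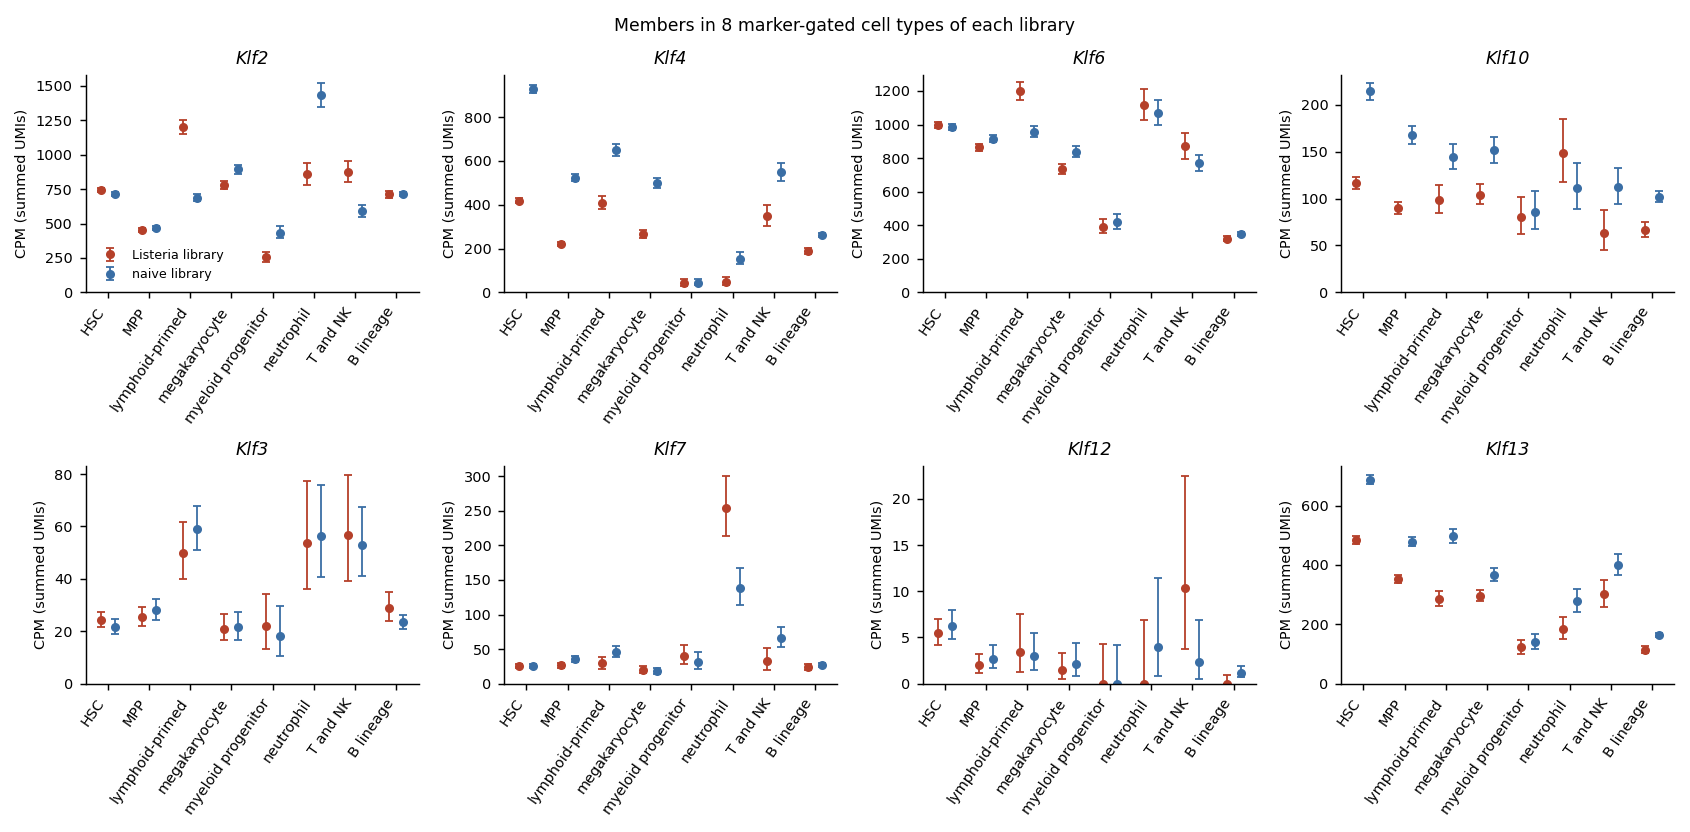
CPM of the 8 members in 8 gated cell types, Listeria library (red) left of naive library (blue), with exact 95% Poisson intervals, each panel on its own axis. Klf4 and Klf13 are highest in HSC-gated cells and Klf7 in neutrophils of both libraries, and Klf12 stays at or near 10 CPM and below.

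The pattern of each member over 16 profiles, 8 types in each of 2 libraries, was set against 8058 genes with at least 20 CPM in 1 of them. Klf4 was most like Ddx17 (an RNA helicase, Pearson r = 0.97), Jund (an AP-1 subunit, 0.96) and Trpc4ap (0.95). Klf13 was most like Cish, a cytokine-signalling inhibitor (0.97), Klf7 like Mxd1, a MYC antagonist (0.97), and Klf6 like Notch2, a Notch receptor (0.96). Klf3 was most like Mctp2 (0.92), Klf10 like Pwwp2b (0.86) and Klf2 like Syap1 (0.83), and Klf12 was under the minimum. Among the members themselves Klf4 went with Klf13 (0.82) and Klf4 against Klf7 (-0.42). The 16 profiles share libraries and depth, and r is a description only.

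In HSC-gated cells with at least 2 UMIs over 8 cell-division genes, Klf4 was lower in both libraries than in the rest. Dividing cells had 289 CPM of Klf4 and non-dividing cells 456 CPM in the Listeria library (log2 ratio -0.66, interval -0.78 to -0.55), and 667 and 981 CPM in the naive library, a ratio of -0.56 (-0.65 to -0.47). Of all genes 14% were lower past the limit and 19.6% higher in dividing cells of the Listeria library, and 11.7% lower and 21.5% higher in those of the naive one. Klf2 was at 540 CPM in dividing and 802 CPM in non-dividing Listeria cells (log2 ratio -0.57), and at 856 CPM in dividing and 686 CPM in non-dividing naive cells. The naive ratio of Klf2, 0.319 (0.24 to 0.40), lies just within the limit, and its sign differed from that in the Listeria library. Klf6 had ratios of -0.49 in Listeria and -0.05 in naive HSC-gated cells, and Klf13 of -0.31 and -0.45. Dividing B-lineage cells had 26.5 CPM of Klf3 against 66.9 CPM in non-dividing ones of the Listeria library (-1.34), and 20.7 against 57.6 CPM in the naive library (-1.47). Klf7 had -1.34 and -1.21 and Klf13 -1.03 and -0.82 in Listeria and naive B-lineage cells, where 43.6% and 39.9% of all genes were lower and 29.2% and 26% higher in dividing cells. Only 49 Listeria B-lineage cells were not dividing, and dividing cells there had a median of 10140 UMIs against 4379.

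Genes around the family were counted in HSC-gated cells, where 22.4% of all genes were higher and 6.97% lower, with a median log2 ratio of 0.11. Of 7 other Krueppel-like and SP genes counted out of 13, 1 was higher and 1 lower, with a median of -0.03. Klf9, a steroid- and thyroid-hormone-responsive relative, was at 410 CPM in Listeria and 452 CPM in naive cells, and Klf11, the closest relative of Klf10, at 64.2 and 83.8 CPM (log2 ratio -0.38). Sp2, chosen after its value was seen, was the higher one at 21.2 CPM in Listeria and 14.5 CPM in naive cells. Of 8 genes of the MEK5-ERK5-MEF2 pathway 1 was higher, Mef2a, at 168 CPM in Listeria and 132 CPM in naive cells, and 0 were lower, so the share of higher genes was below that of all genes. Of 9 cofactors 2 were higher and 0 lower, Crebbp, a histone acetyltransferase, at 210 CPM in Listeria and 147 CPM in naive cells, and Sin3a, a corepressor scaffold, at 42.8 and 33.7 CPM, which is near the share of higher genes in the whole table. Of 6 ubiquitin ligases 3 were higher and 0 lower, beside 22.4% and 6.97% of all genes, with a median of 0.38 against 0.11. They were Fbxo32 (29.1 CPM in Listeria, 16.7 CPM in naive cells), Wwp1 (33.7 and 23.8 CPM) and Smurf1 (19.8 and 14.3 CPM).

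Of 10 genes known as targets of these factors in other cells, 3 were higher and 3 lower in HSC-gated cells, beside 22.4% and 6.97% of all genes, so the share of higher genes was near that of the whole table. Cdkn1a, which encodes the cell-cycle inhibitor p21 and is activated by Klf4, was at 272 CPM in Listeria and 547 CPM in naive cells (log2 ratio -1.01), and Smad7, an inhibitor of TGF-beta signalling, at 346 and 543 CPM (-0.65). Cdkn1c, chosen after its value was seen like the next 2 genes, was at 41.6 CPM in Listeria and 58.3 CPM in naive cells. The higher ones were Tgfbr1 (63.1 CPM in Listeria, 42.4 CPM in naive cells) and Lgals3 (45.3 and 12.6 CPM), beside Ccl5. Ccl5 was at 104 CPM in Listeria and 31.6 CPM in naive cells, and it is also a T and NK marker. That list's 11 genes, Ccl5 among them, summed to 169 CPM in Listeria and 108 CPM in naive HSC-gated cells. The sum thus holds the Ccl5 difference itself. Of the other markers, Nkg7 was at 60.5 CPM in Listeria and 56.7 CPM in naive cells, and Trbc1 at 3.08 and 12.0 CPM. S1pr1, a trafficking receptor activated by Klf2, was at 77.0 CPM in Listeria and 77.3 CPM in naive cells.

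Of 12 early-response genes 0 were higher and 6 lower in Listeria HSC-gated cells, beside 22.4% and 6.97% of all genes, with a median log2 ratio of -0.35. Jund was at 2511 CPM in Listeria and 4634 CPM in naive cells (-0.88), Nr4a1 at 758 and 1175 CPM (-0.63) and Fosb at 1527 and 2070 CPM (-0.44). Atf3 was at 518 CPM in Listeria and 931 CPM in naive cells, and Fos at 911 and 737 CPM, within the limit. Jund was lower in Listeria cells of each class split by Fos and Atf3 as well, with log2 ratios of -0.59 in Fos-high cells, -0.94 in cells with Atf3 and low Fos and -1.08 in cells low in both. The part of these genes in the Klf4 and Klf10 ratios was not tested.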

How the data were processed

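The authors deposited 1 matrix of raw, unnormalized UMI counts for each library. Cell Ranger 3.0.2 and mm10 are named in the submitters' processing notes, and the barcode lists hold 6794880 entries. The members, gene lists and gate thresholds were chosen with earlier results of these data known.

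Cells needed at least 2500 UMIs and 500 genes and at most 10% mitochondrial UMIs. The gene filter removed 17 Listeria and 9 naive barcodes, and the mitochondrial filter 54 and 216. No doublet caller was run. Doublets were addressed only by setting aside cells of 2 lineages, 10 Listeria and 50 naive, and by leaving out the 5% of cells with the most UMIs as an alternative. A lineage gate needed UMIs of 4 markers. The remaining cells were lymphoid-primed with 3 of 8 markers, HSC with 4 of 15 and no Flt3, or MPP with 2 of 5, and 989 Listeria and 1023 naive cells stayed ungated. Plasma cells took precedence over B lineage, and myeloid progenitors over neutrophils. Gates with under 50 cells in a library were left out of the orders.

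Counts were summed per gate and expressed as CPM (scaled to 1e+06), with Poisson intervals. The interval of a ratio came from an exact binomial interval of the Listeria share of a gene's UMIs, and that of a share was by Clopper and Pearson, at 95% throughout. A gene was counted as higher or lower past a log2 ratio of 0.32 or -0.32 and needed 10 CPM in either library. No test across libraries was made. Likeness used log2(CPM + 1). Named genes were all members, up to 6 genes per list by mean CPM, and the 3 genes most like each member. In the list of known targets, 1 further gene is not reported here and was left out of its counts. Scaling alternatives used edgeR 4.0.16 (TMM) and DESeq2 1.42.0 (size factors) in R 4.3.3, and the rest Python 3.11.15 with numpy 2.4.6 and scipy 1.17.1. The ratio step was tested on simulated counts. Gene positions came from GENCODE vM21, with 30934 of 31053 identifiers matched. Genes of the count table on the opposite strand overlap Klf7, Klf12 and Klf13, and none overlaps a member on its own strand.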

Additional observations from a re-analysis of the deposited data

Results flagged for a closer look

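Klf2 had log2 ratios of Listeria over naive of opposite sign in different gates, which drew attention because the cells come from the same 2 libraries. The ratio was 0.80 in lymphoid-primed, 0.83 in erythroid and 0.57 in T and NK cells, and -0.77 in myeloid progenitors, -0.73 in neutrophils, -0.66 in dendritic and -0.33 in plasma cells. The differences between gates were not tested. The erythroid ratio rests on 38 Listeria and 31 naive cells, the dendritic one on 19 and 54, and the plasma one on 37 and 105. The tenth of erythroid cells with the most Klf2 UMIs held 70.5% of them in the Listeria and 55.4% in the naive library.

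Klf6 was at 0.32 in lymphoid-primed and 0.33 in erythroid cells, and at -0.68 in plasma cells. Klf7 was at 0.87 in neutrophils, and at -0.41 in MPP, -0.65 in lymphoid-primed and -1.02 in T and NK cells, the last from 19 Listeria and 85 naive UMIs. Neither set of differences was tested.

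Within HSC-gated cells Klf2 was at 0.26 in Fos-high cells, -0.88 in cells with Atf3 and low Fos and -0.76 in cells low in both, and this difference between classes of cells was not tested either.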

How the results depend on the processing

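With 1 library per group no library could be left out, and cells are not replicates. No paired analysis was possible because each group has 1 library and the labels give no shared replicate numbers. Alternatives for ratios were run only for all kept cells and the HSC, MPP, megakaryocyte and B-lineage gates. Ratios in the other gates, the lymphoid-primed Klf2 ratio among them, had no alternative. Of the alternatives for single ratios and counts, 535 stayed within the spread set for them, 87 moved and 0 reversed a called ratio. Shares of all genes were computed only for the gates and limit given above, so member counts under alternatives have no background beside them. Over all kept cells the counts of 0 higher and 2 lower members held in every alternative. In HSC-gated cells 0 members were higher in every alternative, and the lower count of 3 became 2 at a limit of 1.5-fold and 4 within the cells low in both and within the cells with Atf3 and low Fos. The ranges that follow leave out the classes split by Fos and Atf3. The HSC ratio of Klf4 ranged from -1.27 to -1.03 and that of Klf10 from -0.97 to -0.80. That of Klf13 ranged from -0.60 to -0.47 and that of Klf2 from -0.06 to 0.22. Ratios within the classes reach beyond these ranges for each of these members, such as -1.46 for Klf4 and -0.88 for Klf2.

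The lower count fell at a limit of 1.5-fold to 2 from 4 in MPP-gated cells, to 1 from 2 in megakaryocyte-gated cells and to 1 from 3 in B-lineage cells, because fewer ratios pass a wider limit. In MPP-gated cells it was 7 with 1 marker fewer, and the higher count was 1 with 1 marker more, where the Klf2 ratio was -0.88 and 0.36. In megakaryocyte-gated cells the lower count was 4 without dividing cells and the higher count 1 after thinning to 2500 UMIs. In B-lineage cells the higher count was 1 with at least 4000 UMIs and 1 without the 5% of cells with the most UMIs. The causes were not tested, and shares of all genes under these settings were not computed. The order and share counts held under their alternatives. Leaving out cells with shared barcodes and subtracting free RNA from the Klf2 classes were chosen after seeing the data. TMM and size factors moved HSC ratios by -0.09. Klf12 is limited by depth, with 62 Listeria and 66 naive UMIs in HSC-gated cells.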
